A study of Mus musculus with 2 samples.

Results

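Macrophages that scored higher for Mgl2 and MHC class II genes than for 5 other gene sets were examined in YUMMER1.7 melanoma tumors. Of 10075 cells analysed, 2954 had a UMI (unique molecular identifier, a counted transcript) of Csf1r, the receptor for macrophage colony-stimulating factor, and none of Cd3d, Cd3e, Cd3g, Ncr1, Flt3 or Cd209a, which mark T cells, natural killer (NK) cells and dendritic cells. Each of these gated cells was scored for 6 sets of 4 genes, and the 953 cells whose highest score was for Mgl2, H2-Eb1, H2-Ab1 and H2-DMb1 are the members described here. The other sets reported here were led by Folr2, by interferon-induced genes such as Rsad2, by monocyte genes such as Chil3 and by cycling genes such as Mki67. The score is the mean of the deposited log values of a set's 4 genes, standardized over the gated cells (z). The members were thus chosen by measured values of 31 genes of the gate and the sets, and the levels of those genes are given only as a description.

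Tumors were taken 11 days after injection from C57BL/6 hosts, which were males aged 8 weeks. YUMMER1.7 is a mouse melanoma line with mutant Braf. The hosts of the WT group had intact Siah2 and those of the other group were Siah2-/- in all tissues, while the injected tumor line was the same. Live CD45+ leukocytes were sorted, a smaller number of sorted CD45- cells was added back to both groups, and 1 droplet library was made from the tumors of each genotype. Tumors were minced by group, and how many entered each library is not stated. Effects of genotype cannot be told apart from those of the tumors, the suspension, the library or the lane, and no test across samples is possible. Siah2, a ubiquitin ligase gene, was counted at 11.1 CPM (UMIs of a gene per 1000000 UMIs) in the members of both libraries, from 74 UMIs in WT and 38 UMIs in the other. The assay reads the 3′ end of transcripts and the sources used here do not say which part of the gene was deleted. The counts therefore leave the genotype unchecked, and the second library is called the library labelled Siah2-/-.

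MHC class II molecules present peptides from endosomes to CD4+ T cells. H2-Aa with H2-Ab1 encodes the I-A molecule, and H2-Eb1 encodes a chain of I-E. The invariant chain, from Cd74, occupies the groove until the protease cathepsin S trims it. H2-DM, made from H2-DMa and an H2-DMb gene, then exchanges the remaining fragment for peptide, and H2-O, from H2-Oa and H2-Ob, restrains H2-DM. Transcription of these genes depends on the co-activator CIITA, which acts on X and Y box elements close to their start sites. Mgl2 encodes a C-type lectin (CD301b) found on alternatively activated macrophages and on some dendritic cells.

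The class II genes lie together on chromosome 17, and their shared promoter elements are shown because 3 of the 4 genes that define the members belong to this cluster. H2-Ab1 spans 34257689 to 34269419 on the plus strand, H2-Eb1 34305867 to 34316674 on the plus strand and H2-Aa 34282744 to 34287823 on the minus strand (GRCm38). The stretches below run from 110 to 31 bases before the RefSeq start site in GRCm38.p6, 5′ to 3′ on the strand of the gene, at chr17:34305757-34305836 on the plus strand for H2-Eb1, chr17:34287854-34287933 on the minus strand for H2-Aa and chr17:34238795-34238874 on the plus strand for H2-Ob. Capitals mark the cores of the Y box (ATTGG, or CCAAT on the other strand) and of the X1 box (AGNAAC).
H2-Eb1: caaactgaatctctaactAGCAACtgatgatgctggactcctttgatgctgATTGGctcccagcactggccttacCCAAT
H2-Aa: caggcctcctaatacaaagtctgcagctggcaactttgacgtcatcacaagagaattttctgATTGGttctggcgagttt
H2-Ob: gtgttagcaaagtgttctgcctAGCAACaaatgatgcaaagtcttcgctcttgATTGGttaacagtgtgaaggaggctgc
Of 9 class II genes searched, 7 had a promoter window in the table, with 8 windows of 300 bases. ATTGG was in 7 of the 8 and AGNAAC in 5, read on both strands, against 37.4% and 48.1% of all 32851 promoter windows. Both were in 5 of the 8, against 18.5% of all windows. In 1 of the 5, a window of H2-DMa, the Y core lay 198 bases before the start and the X1 letters 2 bases after it, and the other H2-DMa window held neither. The X1 core began 33 bases before the Y core in H2-Eb1, 31 in H2-Ob, and 34 in both H2-DMb1 and H2-Oa, so the spacing in those 4 genes was the same to within a few bases. H2-Aa held a Y core 48 bases before the start and no match to these X1 letters, which says only that the letters are not in that window. H2-Ab1 and Ciita had no window.

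There were 627 members among the WT cells and 326 among the cells labelled Siah2-/-. They were 37.7% (35.3 to 40.1) of the 1664 gated WT cells and 25.3% (22.9 to 27.7) of the 1290 gated cells labelled Siah2-/-, a log2 ratio of −0.58 (−0.77 to −0.38). All intervals are exact 95% intervals that cover counting error only, and ratios are of the library labelled Siah2-/- over WT unless stated. Of all cells analysed, members were 13.9% (12.9 to 14.9) and 5.86% (5.26 to 6.51), a log2 ratio of −1.25 (−1.44 to −1.05). They were the most frequent of the 6 types in WT. Folr2-type cells made up 16.3% of gated WT cells and 0.930% of those labelled Siah2-/-, and monocyte-type cells 8.53% and 20.3%. Standardizing the scores within each library instead of over both brought the log2 ratio among gated cells to −0.11. The gate against Cd3 genes removed 31.6% of the Csf1r+ WT cells and 52.9% of the Csf1r+ cells labelled Siah2-/-. With that gate dropped, a setting added once values were known, the log2 ratio among all cells was −0.59.

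**Figure D1:**
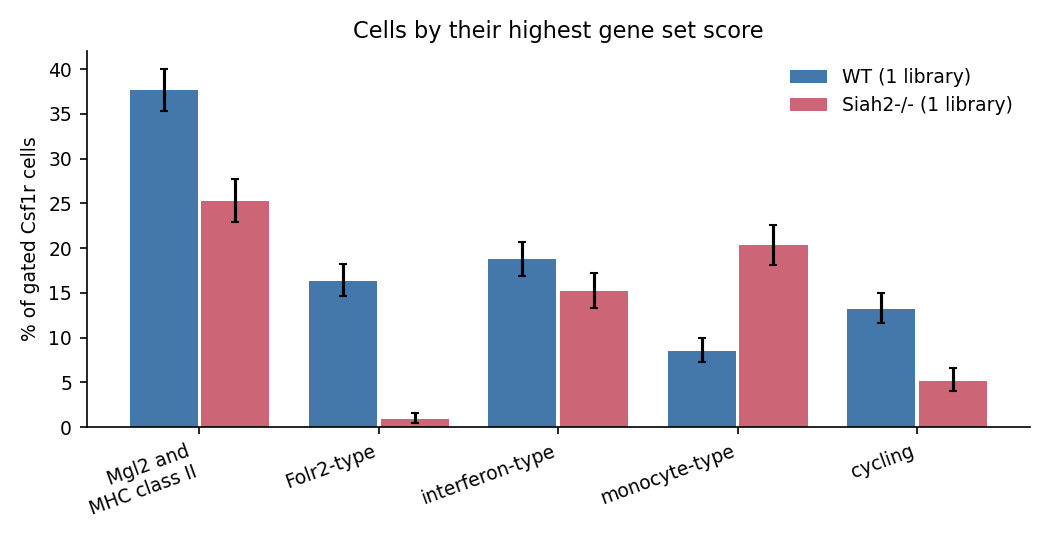
Share of gated Csf1r cells (y axis, percent) whose highest score was for each of 5 of the 6 gene sets (x axis), in the WT library and the library labelled Siah2-/-. Bars are 1 library each and error bars are exact 95% binomial intervals; members were 37.7% in WT and 25.3% in the other library.

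The members had like depth in both libraries. Their median was 9928 UMIs and 2568 genes per cell in WT and 10013 UMIs and 2622 genes in the library labelled Siah2-/-, with a median of 1.17% and 1.09% mitochondrial UMIs. The shallowest member had 6670 UMIs in WT and 4940 in the other library. No cell barcode was shared between the members of the libraries, and 34 were shared among all cells analysed. The median z of the defining set was 0.76 and 0.69, with a lowest z of −0.26 and −0.13. The choice was less clear in the library labelled Siah2-/-, where the median lead over the next set was 0.53 against 0.72 in WT. A lead under 0.1 was seen in 42 WT members and 28 of the others. The closest member led by 0.0012 over the interferon-type set, with a z of 0.777, and the closest cell left out trailed another set by 0.0020. The set in second place was Folr2-type in 33.2% of WT members and 19.0% of the others, and interferon-type in 19.6% and 16.6%.

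The members carried macrophage genes. All 17 markers of the macrophage list had UMIs in both libraries, with a summed level of 54650 CPM in WT members and 45690 CPM in members labelled Siah2-/-. C1qa, a complement component made by macrophages, stood at 5621 and 4294 CPM, and Fcgr1, the high-affinity Fc receptor CD64, at 642 and 660 CPM. The gate removed cells with UMIs of Flt3 or Cd209a, so low levels of dendritic cell markers in members follow partly from the rule. Several markers that define conventional dendritic cells were close to 0. Among them, Zbtb46 was at 1.05 and 2.04 CPM, Xcr1 at 0.752 and 0.582 CPM and Clec9a at 1.96 and 1.16 CPM. In cells with Flt3 or Cd209a UMIs but none of Csf1r or the Cd3 genes, 62 in WT and 73 in the other library, Zbtb46 reached 47.7 and 51.0 CPM, while C1qa was at 68.1 and 87.1 CPM. Itgax, which encodes CD11c and is shared by macrophages and dendritic cells, was at 117 and 111 CPM in members. Over all 14 markers of the dendritic cell list the sum was 872 and 851 CPM in members, against 696 and 709 CPM in free RNA (RNA of barcodes with at most 100 UMIs), and no marker was at 0. Most of it came from Irf8 (388 and 367 CPM) and Naaa (247 and 281 CPM). Of the 14, 7 in WT and 9 in the other library were below free RNA. Batf3 (57.9 and 34.7 CPM) was above it in both libraries, against 29.1 and 23.6 CPM. Wdfy4 (20.8 and 19.8 CPM) was too, against 12.3 and 16.1 CPM. The 9 markers of the monocyte list summed to 3625 and 3957 CPM, against 4187 and 4858 CPM in free RNA, and the exceptions to lying below free RNA were Ccr2, a monocyte chemokine receptor (464 and 327 CPM against 214 and 237 CPM), and Ms4a4c (1045 and 1161 CPM against 508 and 559 CPM). UMIs of Ccr2 were in 90.4% and 81.6% of members. The monocyte sum was 86.6% and 81.4% of that in free RNA. The T and NK markers together were at 2.37% and 4.87% of it, a share that the gate on Cd3 genes and Ncr1 can lower. The members thus carried macrophage markers together with monocyte genes.

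RNA of other cells was seen at a low level that differed between the libraries. The 8 T cell markers in the table summed to 28.4 CPM in WT members and 82.7 CPM in members labelled Siah2-/-, against 1342 and 1719 CPM in free RNA. The 8 NK cell markers summed to 86.8 and 247 CPM, against 3520 and 5042 CPM in free RNA. Every one of these 16 genes was below its level in free RNA in both libraries, and the NK list had 1 gene at 0 in WT. Melanoma markers summed to 8.88 and 8.44 CPM and fibroblast markers to 40.8 and 21.5 CPM.

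The 4 genes that chose the members were high in them by construction. H2-Ab1 was at 16487 CPM in WT members and 16764 CPM in members labelled Siah2-/-, and H2-Eb1 at 9192 and 8670 CPM. H2-DMb1, a chain of the peptide exchanger H2-DM, was at 1662 and 1573 CPM. A UMI of each of these 3 was in every member. Mgl2 was at 141 and 94.3 CPM, and its UMIs were in 31.7% and 20.9% of members. At a fixed 4000 UMIs per cell those shares were 21.9% and 14.4%, against 1.16% and 0.735% of T cells, which lack the gene (1.60% and 1.35% unthinned, at median depths of 9562.5 and 7304 UMIs). Most members thus had no Mgl2 UMI and were placed by their class II genes. Members held 37.0% of all Mgl2 UMIs of the WT cells and 20.8% of those of the cells labelled Siah2-/-, and 35.2% and 15.8% of the H2-Ab1 UMIs. In the cells with Flt3 or Cd209a UMIs described above, Mgl2 was at 162 and 49.5 CPM.

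Class II genes that the rule did not use were at nearly the same level in members of both libraries. Of the 14 such genes, 12 had at least 50 UMIs over both libraries, and none differed by 2-fold, where 1.84% of all genes were at least 2-fold higher and 0.986% at least 2-fold lower. The summed level was 59742 CPM in WT members and 57642 CPM in members labelled Siah2-/-, a log2 ratio of −0.05 (−0.06 to −0.04), and the median over the 12 genes was −0.05, where the median over all 8212 genes was −7.42e-05. H2-Aa stood at 12023 and 11340.4 CPM, a log2 ratio of −0.08 (−0.10 to −0.07). Cd74 was the most abundant gene of the list, at 36243 and 35415 CPM. They share known control with 3 genes of the rule, so their levels are not independent of the choice.

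The chaperones and enzymes of the pathway were also close between the libraries. H2-DMa was at 1292 and 1237 CPM and H2-DMb2 at 88.2 and 87.1 CPM. Ctss, encoding cathepsin S, was at 6827 and 6655 CPM and Ifi30, a lysosomal thiol reductase, at 888 and 919 CPM. Lgmn, an asparagine endopeptidase, was the gene furthest below 0 in the list, with a log2 ratio of −0.28 (−0.32 to −0.23). The inhibitor chain H2-Oa was furthest above, at 16.7 and 25.04 CPM (0.58, 0.16 to 1.00), from 111 and 86 UMIs, whereas its partner H2-Ob was at 7.97 and 7.57 CPM (−0.07, −0.81 to 0.63). Ciita, the co-activator gene, was at 44.1 and 45.1 CPM (0.03, −0.26 to 0.32).

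Across the 6 types, H2-Aa was highest in members and lowest in Folr2-type cells of both libraries. In WT its level was 12023 CPM in members, 7662 in interferon-type, 3851 in monocyte-type, 3173 in cycling and 1994 in Folr2-type cells. In the library labelled Siah2-/- it was 11340.4 CPM in members, 6533 in interferon-type and 2415 in the 12 Folr2-type cells. Cycling and monocyte-type cells changed places there, at 4948 and 3158 CPM. For members over Folr2-type cells the log2 ratios were 2.59 and 2.23 for H2-Aa and 2.55 (1.98 to 3.17) and 2.82 (0.32 to 8.13) for Ciita, the last against a single Ciita UMI. The second of each of these Folr2 values rests on 12 cells.

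**Figure D2:**
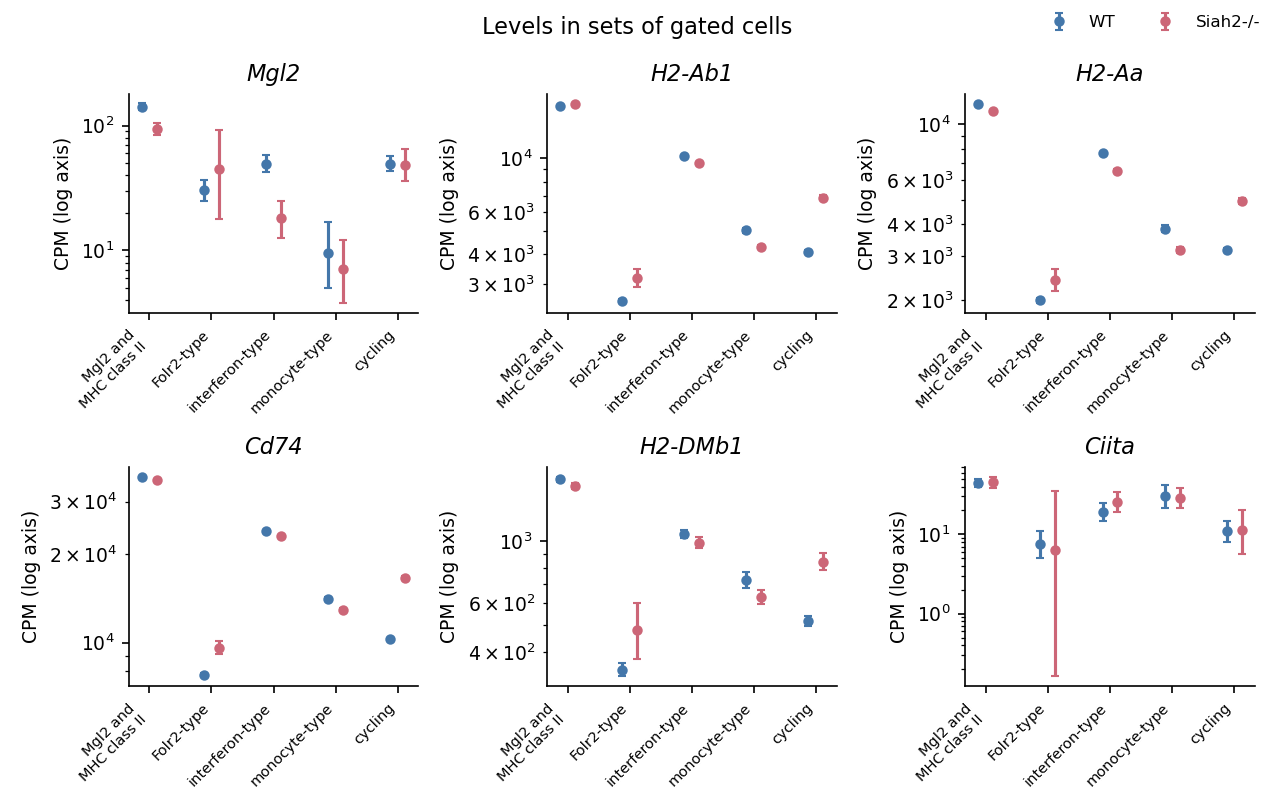
Level of Mgl2 and 5 class II genes (y axes, CPM on a log axis) in 5 of the 6 types of gated cells (x axes), for the WT library and the library labelled Siah2-/-. Points are sums over the cells of 1 library and bars are exact 95% Poisson intervals; H2-Aa ran from 12023 CPM in WT members to 1994 CPM in WT Folr2-type cells, and Mgl2, H2-Ab1 and H2-DMb1 were used to choose the cells.

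Few genes differed 2-fold in every comparison between the members and 2 other types. Of the genes tested, 8 of 8212 genes (0.0974%) were at least 2-fold higher and 8 (0.0974%) at least 2-fold lower in members than in those types, Folr2-type cells among them, in both libraries. Mgl2, which the rule used, was 1 of the 8 higher genes, and the other 7 had no UMI in the 12 Folr2-type cells labelled Siah2-/-, so that comparison bounds no fold for them. These genes were low in level, and Dpp4, Gm13713, Ccl17, P2ry10, Clec2i and Spns3 were among them. The 2-fold call of Ccl17 rests on 1 WT cell with 319 of its 434 UMIs. Without that cell WT members were at 17.3 CPM, below the WT level in 1 of the 2 types compared. Dpp4, encoding the peptidase CD26, was at 13.1 and 10.5 CPM in members and 0.839 CPM in WT Folr2-type cells, with no UMI in the 12 Folr2-type cells of the other library. It is also a marker of the dendritic cell list, at 72.2 and 81.1 CPM in the dendritic comparison cells, and its free RNA level was 11.5 and 15.2 CPM. P2ry10 and Clec2i were below their free RNA levels in both libraries. The next genes by their smallest log2 ratio missed 2-fold in at least 1 of the 4 comparisons, with 0.97 for Cxcr3, 0.90 for Adgrg5, 0.88 for Ppfia4, 0.87 for Tmem156 and 0.78 for Amz1. Cxcr3, a chemokine receptor, was at 12.9 and 12.5 CPM in members, below its free RNA level of 51.0 and 74.9 CPM. Ppfia4, a liprin scaffold gene, was the most abundant of them, at 170 and 103 CPM in members against 92.3 and 51.1 CPM. Adgrg5, an adhesion G protein-coupled receptor, was at 40.3 and 37.9 CPM in members, against 5.59 CPM in WT Folr2-type cells and no UMI in those of the other library.

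Genes lower in members included several that were abundant in Folr2-type cells. Spp1, which encodes osteopontin, was at 99.1 and 87.4 CPM in members against 846 and 294 CPM in Folr2-type cells. Hmox1, heme oxygenase, was at 48.1 and 65.2 CPM against 245 and 850 CPM. Pf4, a platelet and macrophage chemokine, was at 299.5 and 165 CPM against 1241 and 1476 CPM. F13a1, a coagulation factor subunit made by macrophages, was at 11.9 and 27.7 CPM against 176 and 115 CPM, and Emp1 was at 8.12 and 18.9 CPM against 92.0 and 102 CPM. The second value of each Folr2-type pair rests on 12 cells. Rhoc, Cald1 and Gstm1 were also among the 8 lower genes, while Vat1, Tmem140, Scarf1 and Gas1 came next and missed 2-fold in at least 1 comparison, all with levels of 2.04 to 16.3 CPM in members.

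Between the libraries, most genes of the members were close in level. Over the 8212 genes with at least 50 UMIs in members of both libraries together, 90% of log2 ratios lay between −0.55 and 0.65. In the library labelled Siah2-/-, 151 genes (1.84%) were at least 2-fold higher and 81 (0.986%) at least 2-fold lower. Of the 151, 37 are predicted genes or carry names of near-identical copies, whose reads can be split between copies, and 61 were below their own free RNA level in the library labelled Siah2-/-. Of the 81, 41 were below their free RNA level in WT. The rule's own genes made up 4 of the 151 and 1 of the 81. These counts follow the UMI minimum closely and were 74 and 19 among genes with at least 200 UMIs.

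Several of the genes with the highest ratios belong to T and NK cells. Gzma (granzyme A) was at 16.2 CPM in WT members and 70.2 CPM in members labelled Siah2-/-, Lck (a T cell receptor kinase) at 3.16 and 12.8 CPM, and Il2rb (an interleukin 2 receptor chain) at 3.61 and 14.3 CPM. In free RNA the same genes were at 761 and 1306, 196 and 285, and 132 and 160 CPM. Gimap5 and Tnfrsf9, also lymphocyte genes, had log2 ratios of 2.36 and 1.97, with 119 to 214 CPM in free RNA of the libraries. Without the gate on Cd3 genes the log2 ratios were 0.995 for Gzma, 0.30 for Lck, 0.58 for Il2rb, 0.89 for Gimap5 and 0.57 for Tnfrsf9, all under 2-fold. The T and NK markers given above moved the same way. After a free RNA correction scaled to those markers, Gzma, Lck and Gimap5 had no finite ratio, while Il2rb was at 3.81 and Tnfrsf9 at 3.07.

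Most of the other leading genes were also below their free RNA level in at least 1 library. A free RNA correction scaled to T and NK markers gave 2.35 for Hspa1a, 1.96 for Klf2 and 2.48 for Il7r. It gave 2.07 for Hcar2 and 2.06 for Mgarp. Members were gated to have no UMI of the Cd3 genes or Ncr1, so the subtracted share, 2.37% and 4.87%, may be too low. The part that free RNA has in these ratios was not tested. Hcar2, a receptor for nicotinic acid and ketone bodies, was at 5.27 and 22.4 CPM, a log2 ratio of 2.09 (1.496 to 2.71), with 2.54 and 24.1 CPM in free RNA. Hspa1a, an inducible heat shock protein, was at 10.8 and 55.0 CPM (2.34, 1.95 to 2.76), with 26.98 and 91.4 CPM in free RNA, and its ratio was 1.27 among members with a lead of at least 0.5. Klf2, a transcription factor, was at 16.5 and 63.8 CPM (1.95, 1.61 to 2.29), although free RNA held 125 and 253 CPM. Il7r, a cytokine receptor chain, was at 3.31 and 16.6 CPM (2.33, 1.59 to 3.11), with 27.2 and 42.8 CPM in free RNA. Mgarp, Ccdc122 and the predicted gene Gm14548 had log2 ratios of 2.04 to 2.57 from 34 to 111 UMIs in the library labelled Siah2-/-. Ifitm1, an interferon-induced membrane protein singled out after its values were seen, had far more UMIs, 4269 in WT and 8337 in the other library. It was at 642 and 2428 CPM (1.92, 1.86 to 1.97), and its UMIs were in 58.2% and 94.5% of members, or 46.6% and 86.2% at 4000 UMIs per cell. T cells showed Ifitm1 in 34.2% and 55.8% at that depth (41.6% and 68.3% unthinned), and free RNA held 480 and 1519 CPM.

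Tmem176b had the most UMIs of the 12 highest and 12 lowest genes. This membrane protein gene was at 325 CPM in WT members and 98.1 CPM in members labelled Siah2-/-, a log2 ratio of −1.73 (−1.90 to −1.56), from 2157 and 337 UMIs. Its UMIs were in 69.7% and 33.4% of members, and at 4000 UMIs per cell in 54.1% and 23.6%, against 6.25% and 5.21% of T cells (12.2% and 8.58% unthinned). Its neighbour Tmem176a lies next to it on chromosome 6, from 48840919 to 48847071 on the plus strand, and overlaps Tmem176b, which spans 48833818 to 48841496 on the minus strand. Tmem176a, named after its values were seen, was at 122 and 42.5 CPM (−1.52, −1.78 to −1.26). In Folr2-type cells of the same libraries Tmem176b was at 315 and 83.1 CPM, lower in the library labelled Siah2-/- there too, the second value from 13 UMIs in 12 cells. It was also lower there in interferon-type (224 and 89.2 CPM), monocyte-type (160 and 123 CPM) and cycling cells (262 and 82.0 CPM).

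Other genes lower in the library labelled Siah2-/- came from fewer UMIs. Mmp2, a gelatinase abundant in fibroblasts, had 60 UMIs in WT members and 1 in the others, a log2 ratio of −4.95 (−10.28 to −2.42), while fibroblast markers summed to 40.8 and 21.5 CPM. Sulf2, an extracellular sulfatase, was at 26.6 and 6.70 CPM (−1.99, −2.69 to −1.36). Plxdc2, a transmembrane receptor, was at 12.2 and 2.91 CPM and Cxcl14, a chemokine, at 9.03 and 2.33 CPM. Rapsn was at 35.2 and 10.2 CPM (−1.79, −2.34 to −1.27), and Cbr3, a carbonyl reductase, at 18.2 and 6.11 CPM. The remaining names, Prune2, Car13, Nme4 and Dppa3, had 44 to 86 UMIs in WT and 7 to 15 in the other library. Without the gate on Cd3 genes Car13 and Nme4 were under 2-fold, at −0.58 and −0.87, and with cells thinned to 4000 UMIs Plxdc2 was at −1.12 and Sulf2 at −1.34.

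**Figure D3:**
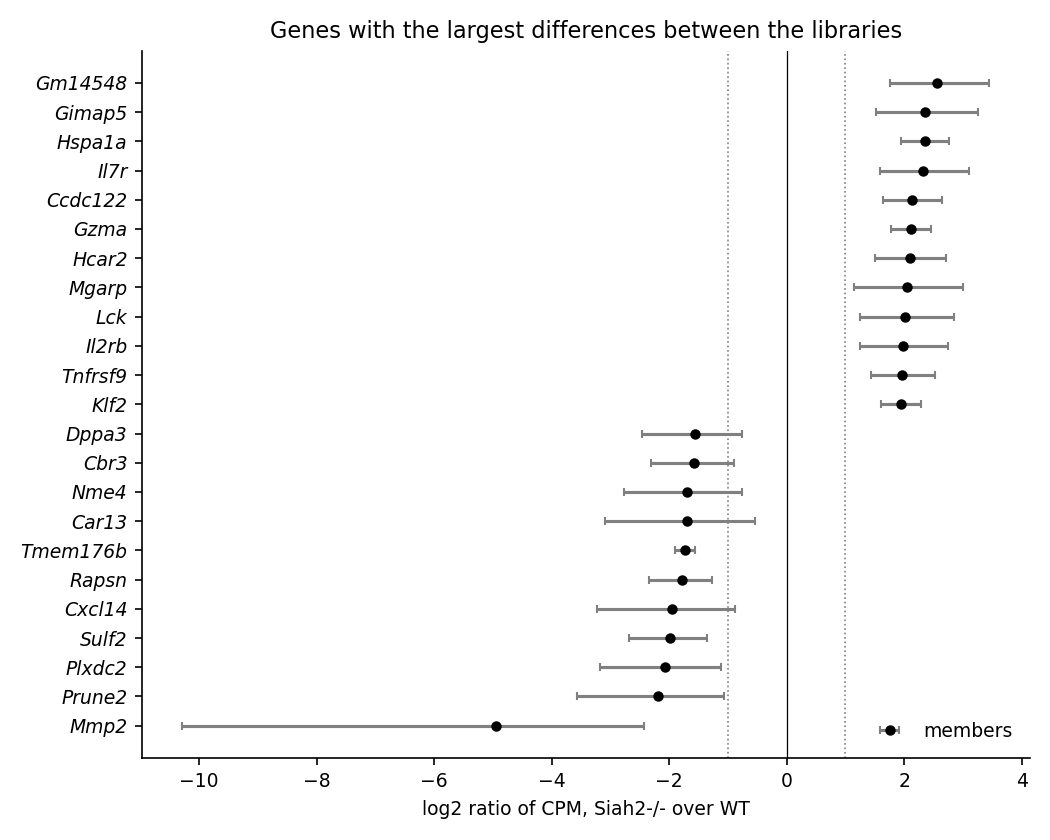
Log2 ratio of CPM, library labelled Siah2-/- over WT (x axis), for the 12 highest and 11 of the 12 lowest genes of members (y axis, genes). Black points with bars are members with exact 95% intervals and dotted lines mark 2-fold; Tmem176b stood at −1.73 in members.

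Macrophage genes were divided. Apoe, a lipid carrier and the most abundant of them, was at 17028 CPM in WT members and 9733 CPM in members labelled Siah2-/-, a log2 ratio of −0.81 (−0.82 to −0.79). Per cell, the median was 158 and 69.7 UMIs per 10000, with quartiles of 83.9 and 242 in WT and of 31.3 and 132 in the other library. Cx3cr1, the fractalkine receptor of macrophages and monocytes, was at 188 and 91.4 CPM (−1.04, −1.22 to −0.86), and its UMIs were in 65.7% and 38.7% of members, or 43.9% and 23.3% at 4000 UMIs per cell, against 3.78% and 2.64% of T cells. The complement genes C1qa, C1qb and C1qc had log2 ratios of −0.39, −0.31 and −0.27, and Adgre1, which encodes F4/80, of −0.41. Cd14, a lipopolysaccharide co-receptor, went the other way at 359 and 503 CPM (0.49, 0.40 to 0.58). Csf1r, used by the gate, was at 595 and 589 CPM. Among all 17 macrophage markers the summed log2 ratio was −0.26 (−0.27 to −0.25), and without Apoe it was −0.07, from 37623 and 35957 CPM.

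The resident macrophage and lipid-associated lists gave medians and sums of different size or sign. In the resident list, 1 of 10 genes was 2-fold higher and none 2-fold lower, with a median log2 ratio of −0.08 and a summed one of −0.37. Pf4 was lower (−0.86), as were the chemokine genes Ccl12 (−0.41) and Ccl7 (−0.39), while Ccl8 (0.87) and F13a1 (1.22) were higher. F13a1 was under 2-fold with cells thinned to 4000 UMIs (0.96) and without the gate on Cd3 genes (0.91). Its level in members was below that in free RNA, 29.5 and 33.1 CPM, in both libraries. Lyve1, which marks perivascular resident macrophages, was listed at 0 in both libraries. The lipid-associated list had a median of 0.15 over 11 genes and a summed ratio of −0.55, with Apoe contributing 17028 of 20745 CPM in WT. Fabp5, a fatty acid carrier, was at 80.3 and 169 CPM (1.07, 0.90 to 1.25), but at 0.26 among members with a lead of at least 0.5. Plin2, a lipid droplet coat protein, was at 117 and 170 CPM (0.54, 0.38 to 0.70). Trem2, a lipid receptor, was at 302 and 287 CPM (−0.08, −0.19 to 0.04), within counting error.

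Alternative activation genes showed no common direction. Of 16 genes 9 had at least 50 UMIs, with 1 at least 2-fold higher, 1 at least 2-fold lower and a median of 0.03. Mrc1, which encodes CD206, was at 47.2 and 48.3 CPM (0.03, −0.25 to 0.31). Clec10a, the paralog of Mgl2, was at 35.4 and 22.1 CPM (−0.68, −1.07 to −0.30), the same direction as Mgl2. The pair are near copies, and reads could be split between them. Tgm2, a transglutaminase, was at 156 and 327 CPM (1.07, 0.95 to 1.19), with UMIs in 37.3% and 65.0% of members at 4000 UMIs per cell (63.8% and 86.5% unthinned), against 4.94% and 6.13% of T cells.

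Ccl17, a chemokine that binds CCR4 on T cells, had the lowest ratio of the list and rested on few cells. WT members held 434 UMIs in 21 cells and members labelled Siah2-/- 19 UMIs in 1 cell, which is 65.3 and 5.53 CPM. A single WT cell carried 319 of the 434 UMIs, the next highest 29, and 13 of the 21 cells had 1 to 3. Without the highest cell of each library the values were 17.3 CPM (14.3 to 20.8) and 0 UMIs, which allows up to 1.08 CPM by the upper bound of the exact interval. The share of members with a UMI was 3.35% (2.08 to 5.07) and 0.307% (0.00777 to 1.70), against 1.45% and 0.306% of T cells. At 4000 UMIs per cell it was 2.07% and 0.307%, against 1.02% and 0.0613% of T cells. The 21 WT cells had 415 CPM of Mgl2 against 132 CPM in the other WT members, no UMI of the dendritic cell gene Ccr7, and 4998 CPM of C1qa against 5644 CPM. Apoe (11233 against 17236 CPM) and Cx3cr1 (99.5 against 191 CPM) were lower in them. Itgax (160 against 115 CPM) and Ccl22 (117 against 2.34 CPM) were higher in them. The 1 cell labelled Siah2-/- had no UMI of C1qa, Cx3cr1 or Ccr7, and 357 CPM each of Apoe and Itgax. Ccl22, the other CCR4 ligand, had 42 UMIs in WT members and 7 in the others. In WT interferon-type cells Ccl17 was at 47.6 CPM (40.6 to 55.6), from 161 UMIs in 9 of 312 cells. All WT members were at 65.3 CPM, and at 17.3 CPM without their highest cell, which was removed from members only. Members held 27.1% of the Ccl17 UMIs of all WT cells and 7.95% of those labelled Siah2-/-.

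MHC class I genes were slightly higher in the library labelled Siah2-/-. All 14 genes of the list had a log2 ratio above 0, 13 of them beyond counting error (12.2% of all genes), with a median of 0.23 and a summed ratio of 0.17 (0.16 to 0.18), and none differed by 2-fold. An interval clears 0 more easily for genes with many UMIs, here and in the lists below, so these counts also reflect abundance. Tap1, a peptide transporter, was at 259 and 359 CPM (0.47, 0.36 to 0.58), H2-T23, a nonclassical class I gene, at 267 and 367 CPM, and B2m, the shared light chain, at 9257 and 9921 CPM (0.10, 0.08 to 0.12). The class II median, given above, was −0.05.

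Interferon gamma responsive genes were higher as a group, though none by 2-fold. Of 16 genes with enough UMIs, 15 had a ratio above 0 and 14 beyond counting error, with a median of 0.38. Of all 8212 genes, 50.0% had a ratio above 0, 12.2% beyond counting error, and 11.4% had a ratio below 0 beyond counting error. Gbp4 (59.1 and 112 CPM) and Gbp2 (315 and 559 CPM), which encode guanylate-binding proteins, had log2 ratios of 0.92 and 0.83. Cxcl9, a chemokine for CXCR3+ T cells, was at 460 and 529 CPM (0.20, 0.12 to 0.29), and Ifngr2, a receptor chain, at 187 and 185 CPM. Nos2, inducible nitric oxide synthase, had 12 and 37 UMIs. Type I interferon genes outside the rule had a median of 0.17 over 18 genes, with only Ifi205 above 2-fold, at 46.2 and 110 CPM (1.26, 1.04 to 1.48).

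Among costimulatory and inhibitory ligands, 1 of 10 genes was 2-fold higher. Cd274, which encodes PD-L1, was at 40.02 and 83.6 CPM (1.06, 0.82 to 1.31), and at 0.78 among members with a lead of at least 0.5. Its UMIs were in 15.2% and 29.4% of members at 4000 UMIs per cell, against 6.69% and 11.6% of T cells. Cd86 was at 196 and 247 CPM (0.33, 0.20 to 0.45) and Cd40 at 77.3 and 80.9 CPM. Cd83, which protects surface class II from turnover, was lower, at 71.5 and 56.8 CPM (−0.33, −0.58 to −0.09).

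Glycolysis and hypoxia-induced genes were higher in the library labelled Siah2-/- throughout. All 20 had a log2 ratio above 0, 19 of them beyond counting error (12.2% of all genes), with a median of 0.53 and a summed ratio of 0.46 (0.44 to 0.48). At least 2-fold higher were Pgk1, a glycolytic kinase, at 63.9 and 161 CPM (1.34, 1.15 to 1.52), Vegfa, an angiogenic factor, at 9.78 and 33.2 CPM (1.76, 1.31 to 2.23), and Hilpda, a lipid droplet protein, at 16.5 and 47.2 CPM (1.51, 1.15 to 1.87). Hilpda was below its free RNA level of 60.2 and 141 CPM, and among members with a lead of at least 0.5 its ratio was 0.63. Slc16a3, a lactate exporter, was at 115 and 207 CPM and Gapdh at 2051 and 2794 CPM.

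Inflammatory genes had a median of 0.39 over 9 genes. Il1b was at 1050.0 and 1652 CPM (0.65, 0.60 to 0.71), with a per-cell median of 8.03 and 13.6 UMIs per 10000. Ptgs2, the inducible cyclooxygenase, was at 16.5 and 39.3 CPM (1.25, 0.87 to 1.62), Il1r2, a decoy receptor, at 147 and 311 CPM (1.08, 0.95 to 1.21) and Nlrp3, an inflammasome sensor, at 26.9 and 54.2 CPM. With cells thinned to 4000 UMIs Nlrp3 and the chemokine gene Cxcl2 were under 2-fold, at 0.59 and 0.78. Tnf was at 26.0 and 22.4 CPM (−0.22, −0.62 to 0.18). Chemokines went both ways, with a median of 0.11 over 16 genes. Ratios were above 0 beyond counting error in 8 genes and below 0 in 6. Cxcl2, a neutrophil attractant, was 2-fold higher at 132 and 275 CPM, and Ccl5 was at 1025 and 1537 CPM (0.58, 0.53 to 0.64). At least 2-fold lower were 2 of the 16, among them Ccl17 (−3.56, −4.31 to −2.90), which rested on few cells.

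Of 19 immediate early and heat shock genes, 18 had a ratio above 0 and 16 beyond counting error (12.2% of all genes), with a median of 0.50. Ier3 was at 173 and 381 CPM (1.14, 1.02 to 1.26; 0.88 with cells thinned to 4000 UMIs) and Dusp1, a phosphatase, at 535 and 1033 CPM (0.95, 0.88 to 1.02), beside Hspa1a and Klf2 given above. The constitutive chaperone gene Hspa8 was at 2533 and 2523 CPM.

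Cell cycle genes outside the rule mostly had ratios below 0. Of 19 genes, 18 had a ratio below 0 and 9 beyond counting error (11.4% of all genes), with a median of −0.59 and a summed ratio of −0.42 (−0.50 to −0.33), and 4 were at least 2-fold lower. Those were the replication licensing genes Mcm2 (25.4 and 12.5 CPM) and Mcm7 (31.3 and 14.0 CPM), and the nucleotide synthesis genes Tyms (18.1 and 9.03 CPM) and Tk1 (15.5 and 6.70 CPM). Without the gate on Cd3 genes Mcm7 was at −0.86 and Tk1 at −0.67, under 2-fold. Pcna, the replication clamp, was at 43.5 and 52.7 CPM (0.28, 0.0015 to 0.55). Cells with stronger cycling scores had been placed in the cycling type, and the cycling set was second in 18.8% of WT members and 12.6% of the others.

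**Figure D4:**
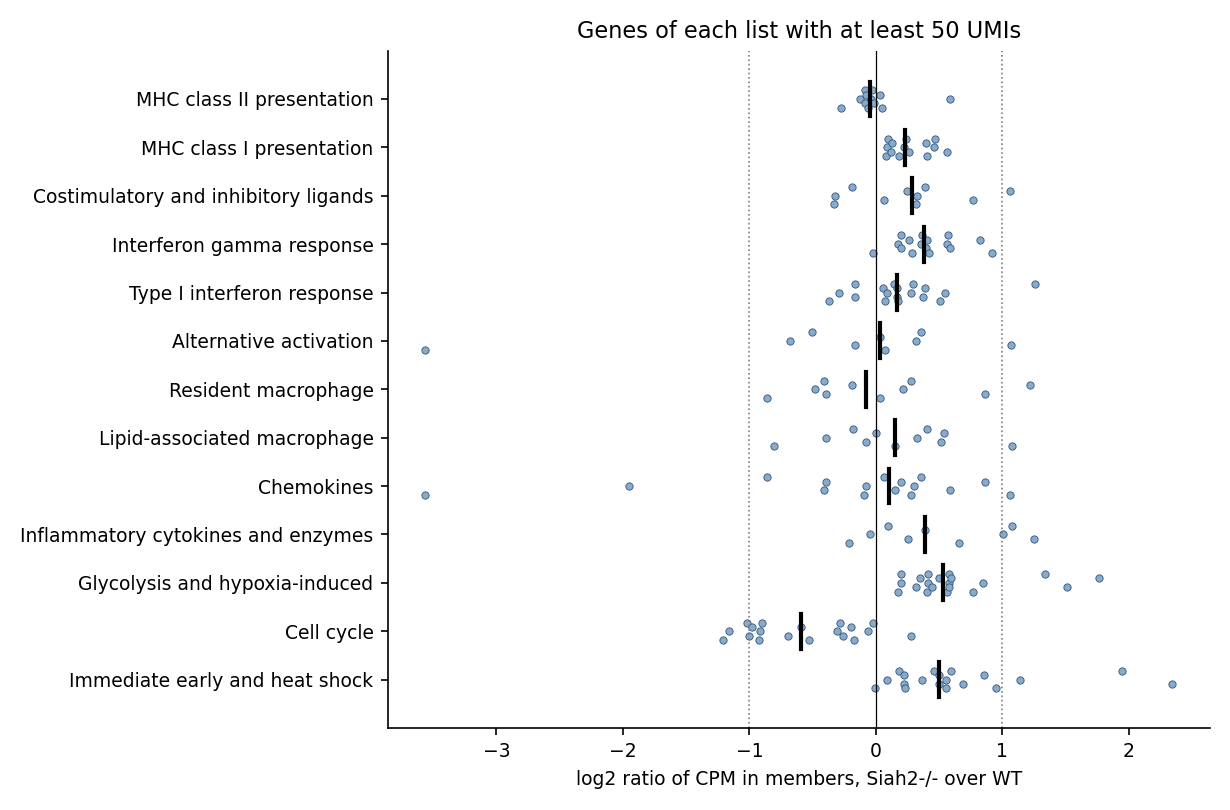
Log2 ratio of CPM in members, library labelled Siah2-/- over WT (x axis), for the genes of each list with at least 50 UMIs (y axis, lists). Each point is a gene, thick bars are list medians and dotted lines mark 2-fold; medians ran from −0.59 for cell cycle genes to 0.53 for glycolysis and hypoxia-induced genes, with −0.05 for class II genes.

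The members were also compared within groups of cells that shared the same second-placed set, since its makeup differed between the libraries. Apoe was lower in the library labelled Siah2-/- in all 5 groups, with log2 ratios from −1.14 to −0.32. Tmem176b was lower in all 5, from −1.98 to −0.90. Ifitm1 (1.48 to 2.02), Il1b (0.48 to 0.84), Pgk1 (0.90 to 1.52) and Gbp2 (0.31 to 0.95) were higher in all 5. Cx3cr1 was lower in all 5, from −1.65 to −0.37, though its interval reached above 0 in the group next to monocyte-type (−0.46, −1.08 to 0.13). C1qa ran from −0.95 next to monocyte-type cells to −0.02 (−0.08 to 0.04) next to cycling cells, the last within counting error. Mgl2 helped choose the members and the groups rest on the same scores, so its ratios are given only as a description. Mgl2 was above WT in 1 group, that next to interferon-type cells (0.20, −0.21 to 0.61). It was lowest in the group next to cycling cells (−1.28, −1.73 to −0.86). H2-Aa moved little, from −0.23 to −0.00059. Of the 434 WT Ccl17 UMIs, 332 were in the 80 members next to monocyte-type cells, most of them in the single cell above. The only group with Ccl17 UMIs in the library labelled Siah2-/- was that next to Folr2-type cells, at 7.37 and 27.5 CPM (1.90, 0.86 to 2.96), where all 19 UMIs came from 1 cell.

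**Figure D5:**
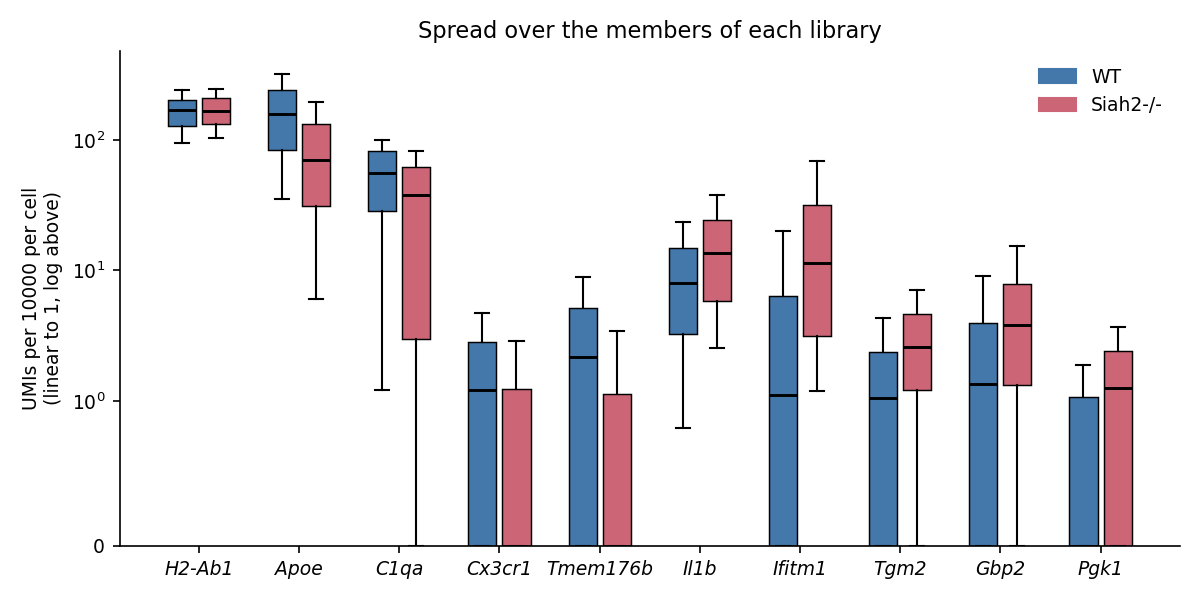
UMIs per 10000 UMIs of the cell (y axis, linear up to 1 and log above) for 10 genes over the 627 WT members and the 326 members labelled Siah2-/-. Boxes are the quartiles, black lines the medians and whiskers the 10th and 90th percentiles over cells of 1 library, not over replicates; the median of Apoe was 158 in WT and 69.7 in the other library, and that of H2-Ab1 169 and 167.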

How the data were processed

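Single-cell libraries were made with the 10x Genomics 3′ v2 kit. The authors counted UMIs per gene and barcode with Cell Ranger on mm10/GRCm38 (no version was found in the labels or methods). The deposited matrices hold these counts as whole numbers for 27998 genes and 737280 barcodes per library. A deposited table of 14654 genes gives, per the file headers and values, the natural log of 1 plus UMIs per 10000, as normalized by the authors. It covers the cells left after their filters on detected genes and mitochondrial share, 4512 from WT and 5563 from Siah2-/- hosts. A deposited table of raw counts matched the matrices except in 1934 and 1879 values of rare genes. Analysed cells held 64793053 and 59090284 UMIs.

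The gate and scores used the natural log values. The z-scores were taken over the gated cells of both libraries. Levels are UMIs summed over members per 1000000 UMIs of the table's genes (CPM), from the matrices, and genes with fewer than 50 UMIs over both libraries' members were not compared. Intervals are exact at 95% (binomial for shares, Poisson for levels, conditional binomial for ratios) and cover counting error only. Doublets were not called. An alternative left out the 5% of gated cells with the most UMIs. Free RNA is the sum of barcodes with at most 100 UMIs. T cells were those with UMIs of at least 2 of the Cd3 genes and none of Csf1r. RefSeq promoter windows (GRCm38.p6) ran from 250 bases before to 50 after each start.

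Named genes were the 12 highest and 12 lowest ratios with an interval off 0 and no cell holding 20% or more of the UMIs of the higher library, the 12 highest and 12 lowest by the least favourable of 4 ratios against 2 other types, Folr2-type cells among them, and the genes of the lists and marker lists. Genes outside this rule are said to be so. Results on some genes, and on 1 of the 6 types, are not reported here. The members, lists and tests were chosen with earlier results of these data known. Alternatives changed the lowest depth, barcodes, standardization, margin, thinning to 4000 UMIs, centring, weighting of cells, free RNA and UMI minimum. A gate without Cd3 genes, a free RNA correction scaled to T and NK markers, and the choice of members in the comparison with other types were added after the data were seen. Python 3.11.15, numpy 2.4.6, scipy 1.17.1 and pandas 2.3.3 were used.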

Additional observations from a re-analysis of the deposited data

How the results depend on the processing

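No paired analysis was possible because each genotype has 1 library. Precision is limited by that, and for genes below about 50 UMIs by counting. The count of genes 2-fold higher in members labelled Siah2-/-, 151, became 291 with at least 20 UMIs, 74 with at least 200, 1130 with no minimum and 240 with z-scores within each library. The count 2-fold lower, 81, became 197, 19 and 1545 with those UMI minimums. The log2 ratio of the share of members among all cells, −1.25, became −1.01 with all barcodes of at least 1000 UMIs, −0.78 with z-scores within each library, −1.63 with a lead of at least 0.5, −0.82 with cells thinned to 4000 UMIs and −0.59 without the gate on Cd3 genes. Among gated cells, −0.58 became −0.11 with z-scores within each library and −0.96 with a lead of at least 0.5. The summed class II ratio, −0.05, became −0.043 with the deeper library's lowest UMI count in both, −0.063 with all barcodes of at least 1000 UMIs, −0.029 with z-scores within each library, −0.021 with a lead of at least 0.5, −0.040 without the 5% of gated cells with the most UMIs, −0.067 with thinning, −0.028 after the free RNA correction and −0.084 without the gate on Cd3 genes. Against 2 other types, 8 genes higher, Mgl2 included, became 14 with a lead of at least 0.5, and 8 lower became 15 with that lead and 4 with z-scores within each library or thinning. Over 54 named genes, 447 of 537 ratios stayed within their counting interval and none of the called ones turned sign where a ratio could be had. Gzma, Lck and Gimap5 had no finite ratio after the free RNA correction, which moved Il2rb from 1.98 to 3.81 and Tnfrsf9 from 1.97 to 3.07, and 38 of 437 values of called genes fell under 2-fold. Free RNA scaled to haemoglobin and immunoglobulin UMIs was not run, since members held 21 and 5 such UMIs in WT and 2 and 7 in the other library.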
